A study of Mus musculus with 6 samples.

Results

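The receptors of the ERBB family and MET, together with their ligands, were followed in the livers of mice with and without a guide RNA against Prdx2. The 10 genes were picked by symbol, by a rule that holds no threshold on a measured value but was written with earlier results of these data known: the receptors Egfr, Erbb2, Erbb3 and Met, and the ligands Hgf, Areg, Ereg, Hbegf, Tgfa and Egf. All 10 were found among the 52459 genes of the count table and all 10 were among the 17032 genes with enough counts to be tested.

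ERBB receptors are membrane tyrosine kinases that pair up when a ligand of the EGF family binds. ERBB2 has no known ligand of its own and ERBB3 has a weak kinase, so both signal mainly as partners of other family members. Most EGF family ligands are made as membrane precursors that sheddases cut free. MET is the receptor of HGF, which is secreted as an inactive single chain and is activated by serine proteases. In liver, hepatocytes carry EGFR, ERBB3 and MET, stellate and other nonparenchymal cells are the main source of HGF, and both receptor systems are known for their part in liver regeneration.

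The samples were livers of 6 Alb-Cre/Cas9 F1 mice of strain C57BL6J, 8 months old, in which Cre under the albumin promoter switches on Cas9 in hepatocytes. An AAV8 vector carried either sgCtrl (livers 5.1, 7.1 and 7.2) or sgPrdx2 (livers 1.1, 1.3 and 3.2) and was injected into a vein at 4 to 5 weeks of age, and each name below is the mouse number on the label. Both groups then received 100 mg/kg diethylnitrosamine (DEN), a liver carcinogen, 3 weeks later, and from 1 week after that a fat-rich diet without choline (CDAHFD) for 6 months, so there was no healthy liver for comparison. PRDX2 protein is described as suppressed in hepatocytes of the sgPrdx2 livers of this model, by tissue staining. Islets of PRDX2-positive cells, probably not reached by the vector, are described there too, and whole liver holds cell types without Cas9.

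Total counts ranged from 37462102 to 56865293 per liver, and 3 counts corresponded to between 0.0555 and 0.0921 CPM, counts scaled to a common library size by the TMM method and the unit used below for a level. Prdx2 mRNA itself stood at 109, 117 and 132 CPM in sgCtrl livers and at 99, 112 and 149 CPM in sgPrdx2 livers, with a log2 fold change of 0.01 (SE 0.18, n = 3 per group, adjusted p = 0.983, edgeR's quasi-likelihood test). A Cas9 edit need not lower the mRNA of its target, so this level does not check the labels. Over all genes tested, 567 (3.33%) were called at an adjusted p under 0.05, of which 305 (1.79%) were higher and 262 (1.54%) lower in sgPrdx2 livers. The first principal component held the groups apart, with scores of -30.9 to -19 in sgCtrl livers and of 10.2 to 44.3 in sgPrdx2 livers. Liver sgPrdx2 3.2 stood apart by transcript length: genes of up to 2.58 kb were 0.33 higher and genes of at least 6.62 kb were 0.30 lower in it than their mean over the livers (median log2 values), whereas these medians lay between -0.16 and 0.15 in the other livers.

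Cell type markers moved with the groups. The summed level of 8 hepatocyte markers was 76800 to 82600 CPM in sgCtrl livers and 133000 to 177000 CPM in sgPrdx2 livers. Alb made up most of this sum, with a mean of 60200 of 79200 CPM in sgCtrl and 118000 of 159000 CPM in sgPrdx2 livers. Of the 8, 4 (Alb, Ttr, Apoa1 and Cyp2e1) were called higher, beside 1.79% of all genes, and only Tat overlapped between groups. The sums of 8 markers each were lower in every sgPrdx2 liver for stellate cells and fibroblasts (1140 to 1290 against 887 to 948 CPM). So were those for cholangiocytes (1680 to 1910 against 1260 to 1450 CPM) and macrophages (1100 to 1390 against 765 to 805 CPM). For sinusoidal endothelium they were 379 to 418 against 291 to 371 CPM. Of the 8 stellate and fibroblast markers, 0 were called, 3 had an unadjusted p under 0.05 and DESeq2 called 1. Over all genes these shares were 3.33%, 24.9% and 14.0%. Each of the 5 sums above gave p = 0.1 in the two-sided exact permutation test over livers, the smallest value that 3 against 3 can give. The sums of neutrophil, lymphocyte, mesothelial and type 2 or regulatory cell markers overlapped between groups (p = 0.4 to 0.5, exact permutation test). Of the basophil and mast cell markers, Fcer1a had 0 counts in every liver, and Mcpt8 and Cpa3 had at most 9 in any liver. Of the neutrophil markers, Ly6g had 2 counts in all 6 livers together, whereas S100a8 had 129 to 289 counts and S100a9 had 143 to 328 counts per liver. In whole liver, fewer cells of a type and less RNA per cell cannot be told apart, and the part that this makeup has in the values below was not tested.

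None of the 10 receptors and ligands was called. The edgeR test gave 0 of 10 at an adjusted p under 0.05, and DESeq2 also gave 0 of 10, where it called 14.0% of all genes. At an unadjusted p under 0.05 there were 3 of 10, the ligands Areg, Ereg and Hgf, all lower in sgPrdx2 livers, against 24.9% of all genes. Hgf and Ereg were lower in each sgPrdx2 liver than in any sgCtrl liver, 2 of 10 genes where 17.5% of all genes showed this, and 0 of 10 genes were higher without overlap, where 16.7% of all genes were. These shares are near those of all genes and are not a result about the set. The median log2 fold change was 0.32 over the 4 receptors and -0.57 over the 6 ligands, beside -0.02 over all genes tested.

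**Figure D1:**
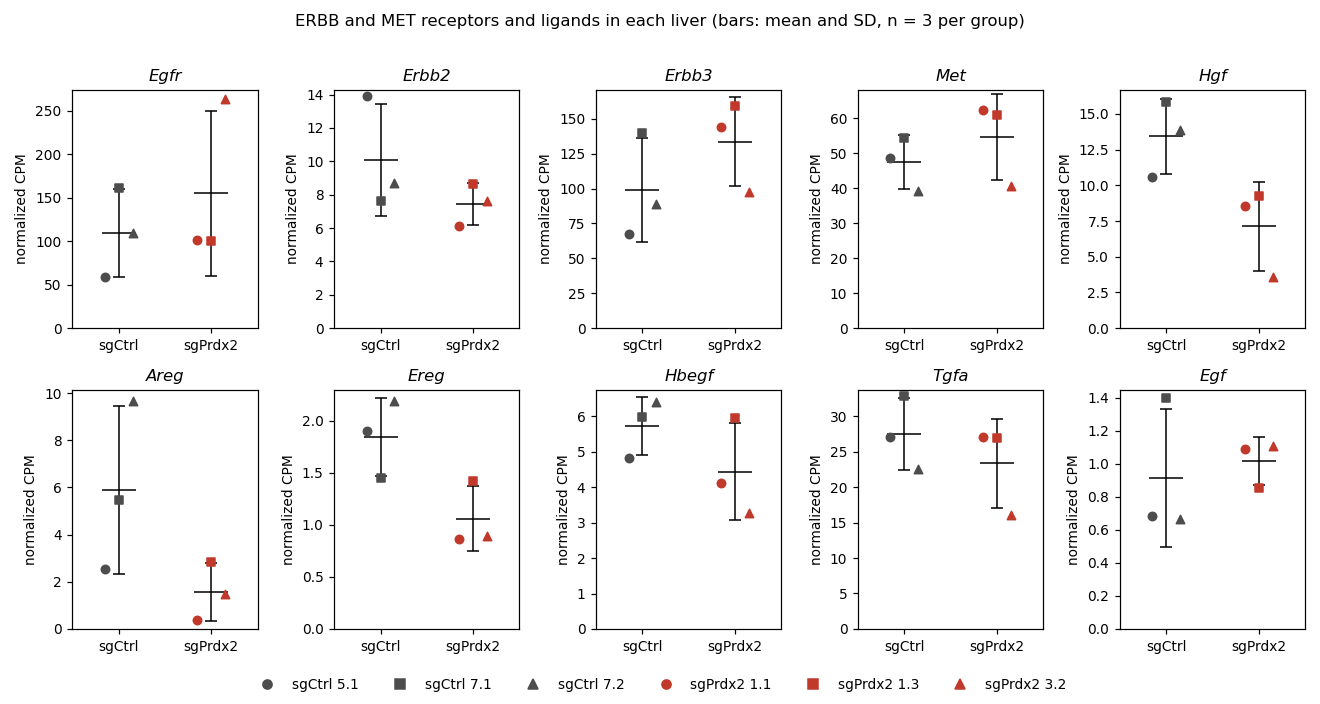
Normalized CPM of each receptor and ligand in the 6 livers, with the mean and SD of each group (n = 3). Hgf and Ereg are the 2 genes whose groups do not overlap, and Egfr is at its highest, 264 CPM, in liver sgPrdx2 3.2.

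Egfr, the receptor of EGF, TGFA, AREG and other ligands, differed more between mice of the same group than between groups. It stood at 59.4, 161 and 109 CPM in sgCtrl livers 5.1, 7.1 and 7.2, and at 101, 100 and 264 CPM in sgPrdx2 livers 1.1, 1.3 and 3.2. The sgPrdx2 livers 1.1 and 1.3 lay between the sgCtrl values, and the other one was above all of them. The log2 fold change was 0.50 (SE 0.46, 95% interval -0.58 to 1.57, adjusted p = 0.533, edgeR's quasi-likelihood test), and it was -0.12 without liver sgPrdx2 3.2. The spread of Egfr within groups, an SD of 0.76 on the log2 scale, was larger than that of 98.5% of the 14123 genes averaging 1 CPM or more, whose median was 0.21. Counts of Egfr were 2601 or more in every liver, so this spread was far above counting error. The annotated exons of Egfr, merged over its transcripts, span 11.33 kb, and Egfr was high in the liver where genes with long merged exons were low. With the length trend removed in each liver, an alternative chosen after seeing the data, its log2 fold change was 0.77 (adjusted p = 0.389).

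The window of 250 bases before the start of Egfr is shown because this receptor varied so much between livers. It lies at chr11:16751953-16752202 on the plus strand (RefSeq, GRCm38.p6), ahead of a gene annotated at chr11:16752203-16918158. Windows were searched on both strands for TGANTCA (the AP-1 motif), TGACGTCA (the cAMP response element) and GGGCGG (the GC box), which were present in 6.75%, 1.55% and 32.7% of 32851 promoter windows of this length. The capitals mark GGGCGG read on the reverse strand, with its outermost base 9 bases before the start.
Egfr: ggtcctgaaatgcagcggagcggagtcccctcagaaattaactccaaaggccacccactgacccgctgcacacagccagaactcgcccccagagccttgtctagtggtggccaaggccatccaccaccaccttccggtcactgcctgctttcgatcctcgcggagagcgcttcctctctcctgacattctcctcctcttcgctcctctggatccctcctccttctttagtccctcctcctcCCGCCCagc

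Erbb3, which encodes the receptor with the weak kinase, had the highest mean level per length of the 4 receptors in both groups. In liver sgPrdx2 3.2, Egfr exceeded it (23.3 against 16.2 CPM per kb). Without division by length, the mean of Egfr was the higher one, at 110 against 98.7 CPM in sgCtrl and 155 against 134 CPM in sgPrdx2 livers. Erbb3 stood at 67.7, 140 and 88.7 CPM in sgCtrl livers and at 144, 159 and 97.6 CPM in sgPrdx2 livers. All sgPrdx2 livers exceeded 2 of the sgCtrl livers, and the ranges overlapped through liver sgCtrl 7.1. This gave a log2 fold change of 0.44 (SE 0.29, 95% interval -0.23 to 1.11, adjusted p = 0.377, edgeR). Egfr was highest in liver sgPrdx2 3.2 and Erbb3 in liver sgPrdx2 1.3, and their ratio of counts was 0.878, 1.15 and 1.23 in sgCtrl livers and 0.699, 0.628 and 2.71 in sgPrdx2 livers (p = 1, exact permutation test).

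Erbb2, the partner without a ligand, was the least abundant among the receptors Egfr, Erbb2, Erbb3 and Met. It stood at 13.9, 7.61 and 8.71 CPM in sgCtrl livers and at 6.13, 8.62 and 7.65 CPM in sgPrdx2 livers. Liver sgCtrl 5.1 was above the rest, and the remaining 5 livers were mixed. This difference was -0.43 on the log2 scale (SE 0.25, 95% interval -1.01 to 0.15, adjusted p = 0.322, edgeR), and -0.13 without liver sgCtrl 5.1. The summed level of Egfr, Erbb2 and Erbb3 per length overlapped between groups, at 19.2 to 38.9 CPM per kb in sgCtrl livers and 34.1 to 41 CPM per kb in sgPrdx2 livers (p = 0.3, exact permutation test).

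Met, the HGF receptor, was the steadiest of the receptors. It stood at 48.7, 54.5 and 39.3 CPM in sgCtrl livers and at 62.3, 61 and 40.6 CPM in sgPrdx2 livers. The sgPrdx2 livers 1.1 and 1.3 were above all sgCtrl livers, and the other one was near the lowest of them. On the log2 scale the difference was 0.20 (SE 0.20, 95% interval -0.26 to 0.66, adjusted p = 0.556, edgeR), and it was -0.15 when counts were scaled by library totals alone. That scaling put the median of all genes at -0.39.

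**Figure D2:**
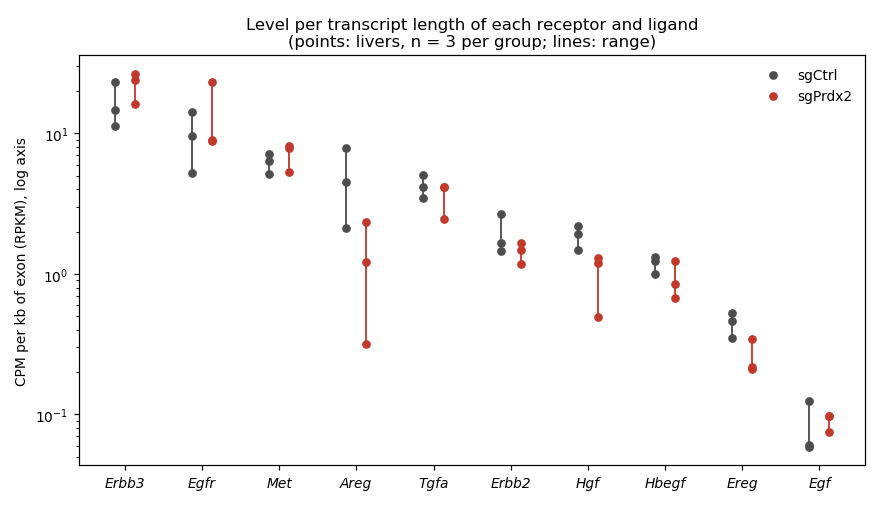
Level per length (CPM per kb of exon, log axis) of each receptor and ligand in sgCtrl (grey) and sgPrdx2 (red) livers, with 1 point per liver and a line over the range. Erbb3, Egfr and Met are the top 3 genes in both groups, and Areg is the gene whose place in the order differs most.

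Per length of exon, the order of levels in sgCtrl livers was Erbb3 (16.4 ± 6.15 CPM per kb, SD, n = 3), Egfr (9.71 ± 4.49), Met (6.19 ± 0.994), Areg (4.84 ± 2.93), Tgfa (4.23 ± 0.785), Erbb2 (1.94 ± 0.649), Hgf (1.87 ± 0.364), Hbegf (1.19 ± 0.17), Ereg (0.447 ± 0.0906) and Egf (0.0814 ± 0.0372). From Erbb3 to Tgfa, neighbours in this order overlapped, as did Erbb2 with Hgf, while Tgfa was above Erbb2, Hgf above Hbegf, Hbegf above Ereg and Ereg above Egf in all livers of the group. In sgPrdx2 livers the order was Erbb3 (22.3 ± 5.36 CPM per kb, SD, n = 3), Egfr (13.7 ± 8.36), Met (7.11 ± 1.58), Tgfa (3.6 ± 0.972), Erbb2 (1.43 ± 0.241), Areg (1.29 ± 1.01), Hgf (0.992 ± 0.432), Hbegf (0.919 ± 0.285), Ereg (0.257 ± 0.0764) and Egf (0.0902 ± 0.0128). There Erbb3 overlapped with Egfr, and from Erbb2 to Hbegf neighbours overlapped, while the remaining steps held in all livers of the group. Lengths came from an annotation that need not be the one the reads were counted on.

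Hgf, the MET ligand, was lower in every sgPrdx2 liver, although it did not pass the test. It stood at 10.6, 15.8 and 13.9 CPM in sgCtrl livers and at 8.57, 9.25 and 3.56 CPM in sgPrdx2 livers (means 13.4 ± 2.62 and 7.13 ± 3.1, SD, n = 3). The groups did not overlap, and liver sgPrdx2 3.2 was the lowest of the 6. The log2 fold change was -0.91 (SE 0.34, 95% interval -1.68 to -0.13, unadjusted p = 0.0273, adjusted p = 0.153, edgeR's quasi-likelihood test), a level 0.534 times that of sgCtrl livers. The adjusted p was 0.0527 by DESeq2 and 0.049 by edgeR with counts scaled by library totals alone, and the log2 fold change was -0.58 without liver sgPrdx2 3.2. Of the 50-base stretches of Hgf exons, 6.02% also occur in Gm43489, a gene overlapping it on the same strand, so a small part of its counts could be shared.

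Relative to Met, Hgf was also lower in every sgPrdx2 liver. The ratio of their counts within a liver, which does not depend on normalization, was 0.218, 0.29 and 0.353 in sgCtrl livers and 0.138, 0.152 and 0.0877 in sgPrdx2 livers. The groups did not overlap (p = 0.1, exact permutation test, the smallest possible), and the mean log2 ratio differed by -1.20, ranging from -1.39 to -0.96 when each liver was left out in turn. Lrat, the retinol esterifying enzyme that marks stellate cells, was itself lower, at 19.7, 30.5 and 24 CPM in sgCtrl livers and 17.7, 19.4 and 8.2 CPM in sgPrdx2 livers. The ratio of Hgf to Lrat counts was 0.538, 0.517 and 0.578 in sgCtrl livers against 0.483, 0.477 and 0.434 in sgPrdx2 livers, lower without overlap (p = 0.1, exact permutation test, the smallest possible). Lrat was picked from 8 stellate and fibroblast markers that did not move alike: Dcn and Acta2 were also lower without overlap, whereas Reln (log2 fold change 0.15), Des (0.03), Pdgfrb (-0.11), Ngfr (-0.29) and Col1a1 (-0.50) overlapped between groups. Relative to the summed counts of all 8 markers, Hgf stood at 0.823%, 1.3% and 1.22% in sgCtrl livers and at 0.952%, 0.975% and 0.402% in sgPrdx2 livers, which overlapped (p = 0.3, exact permutation test). The part of stellate cell content in the Hgf values was not tested.

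The window before the Hgf start is shown beside that of Areg because these had the largest log2 differences among the 6 ligands. It lies at chr5:16553245-16553494 on the plus strand (RefSeq, GRCm38.p6), ahead of a gene annotated at chr5:16553495-16620152. It held none of the 3 motifs searched, so it is printed without capitals.
Hgf: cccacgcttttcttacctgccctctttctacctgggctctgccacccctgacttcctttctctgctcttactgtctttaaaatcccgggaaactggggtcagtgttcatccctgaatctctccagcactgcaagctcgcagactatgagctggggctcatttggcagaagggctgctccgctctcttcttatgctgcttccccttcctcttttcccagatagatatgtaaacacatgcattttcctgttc

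Areg, an EGFR ligand that injured epithelia and immune cells release, had the largest difference of the 10 genes and the widest spread. It stood at 2.56, 5.45 and 9.65 CPM in sgCtrl livers and at 0.387, 2.83 and 1.47 CPM in sgPrdx2 livers, from counts of 112, 245 and 507 and of 17, 153 and 48. Liver sgPrdx2 1.3 was above liver sgCtrl 5.1, so the groups overlapped, and the highest liver exceeded the lowest 24.9-fold. The log2 fold change was -1.90 (SE 0.68, 95% interval -3.46 to -0.34, unadjusted p = 0.0232, adjusted p = 0.142, edgeR). It ranged from -2.68 to -1.34 when each liver was left out in turn. The spread within groups, an SD of 0.91 on the log2 scale, exceeded that of 99.2% of the 14123 genes compared.

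The Areg window lies at chr5:91139349-91139598 on the plus strand (RefSeq, GRCm38.p6), just ahead of a gene annotated at chr5:91139599-91148432. The capitals mark TGACGTCA, whose first base is at position -61 from the start, and GGGCGG at position -52. Of the 7 of the 10 genes with a window among the promoters, Areg was the one with TGACGTCA, and a match is a description of these letters only.
Areg: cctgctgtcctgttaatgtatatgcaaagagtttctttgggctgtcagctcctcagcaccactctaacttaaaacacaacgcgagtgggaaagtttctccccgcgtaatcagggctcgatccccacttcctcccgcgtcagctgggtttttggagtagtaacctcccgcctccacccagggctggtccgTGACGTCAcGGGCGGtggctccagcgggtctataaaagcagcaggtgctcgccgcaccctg

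Ereg, the EGFR ligand encoded near Areg on chromosome 5, was also lower without overlap. It stood at 1.9, 1.45 and 2.19 CPM in sgCtrl livers and at 0.866, 1.42 and 0.891 CPM in sgPrdx2 livers. The nearest pair of livers, sgCtrl 7.1 and sgPrdx2 1.3, were almost level. On the log2 scale Ereg differed by -0.79 (SE 0.29, 95% interval -1.45 to -0.12, unadjusted p = 0.0261, adjusted p = 0.149, edgeR). Its counts were 29 to 115 per liver. Areg and Ereg were both highest in liver sgCtrl 7.2 and lowest in liver sgPrdx2 1.1. For Ereg, liver sgPrdx2 1.1 was almost level with liver sgPrdx2 3.2 (0.866 and 0.891 CPM).

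Tgfa, Hbegf and Egf, which also bind EGFR, showed no difference beyond the spread. Tgfa, a precursor made by hepatocytes and other cells, stood at 27, 32.8 and 22.6 CPM in sgCtrl livers and at 27.1, 26.9 and 16.1 CPM in sgPrdx2 livers, with a log2 fold change of -0.23 (SE 0.23, 95% interval -0.76 to 0.29, adjusted p = 0.553, edgeR). Hbegf, which carries a heparin-binding stretch, stood at 4.82, 5.98 and 6.41 CPM against 4.12, 5.95 and 3.26 CPM, with a log2 fold change of -0.36 (SE 0.25, 95% interval -0.93 to 0.20, adjusted p = 0.39, edgeR). In both genes 1 or more sgPrdx2 livers lay within the range of the sgCtrl livers and liver sgPrdx2 3.2 was the lowest. Egf, whose main source is kidney and salivary gland, was the lowest of the 10 genes per length, at 0.685, 1.4 and 0.666 CPM against 1.09, 0.851 and 1.11 CPM, from 30 to 63 counts per liver. Its log2 fold change was 0.15 (SE 0.35, 95% interval -0.66 to 0.95, adjusted p = 0.818, edgeR), and 8.11% of its 50-base stretches occur in genes on the opposite strand.

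The 5 EGFR ligands among the 10 genes, without Btc, made up a pool of 7.78, 11.2 and 13.3 CPM per kb in sgCtrl livers and of 5.65, 8.12 and 4.68 CPM per kb in sgPrdx2 livers, with an overlap through liver sgPrdx2 1.3 (p = 0.2, exact permutation test). Areg took 27.1%, 39.9% and 59.5% of the pool in sgCtrl livers and 5.64%, 28.7% and 26% in sgPrdx2 livers (p = 0.2, exact permutation test). Tgfa took 53.5%, 44.9% and 26.1% against 73.8%, 51% and 52.9% (p = 0.3, exact permutation test). Which ligand led therefore differed between livers: Areg led in liver sgCtrl 7.2 and Tgfa in the other 5. Hbegf took 9.94% to 12.8% in sgCtrl livers and 14.4% to 15.2% in sgPrdx2 livers, without overlap (p = 0.1, exact permutation test, the smallest possible), while its own CPM overlapped between groups. The shares sum to the whole, so that one ligand's share moves with the others. With Btc added to the pool, a sum computed after seeing the data, Btc took 15.5% to 23.4% in sgCtrl livers and 17.1% to 23.9% in sgPrdx2 livers, Areg 21.6%, 30.6% and 50.3% against 4.29%, 22.6% and 21.5%, and Tgfa 42.7%, 34.4% and 22.1% against 56.2%, 40.1% and 43.9%. The ligand that led in each liver was the same as without Btc, and the pool of 9.75 to 15.8 against 5.64 to 10.3 CPM per kb again overlapped between groups (p = 0.2, exact permutation test).

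The other genes of these pathways came from 5 lists of 47 genes in all, of which 44 were tested. Among these 2 were called higher and 4 lower, 6 of 44 beside 3.33% of all genes, 18 had an unadjusted p under 0.05 beside 24.9%, and DESeq2 called 17 beside 14.0%. Their median log2 fold change was -0.28. The 5 lists were chosen with earlier results of these data known, so these shares are not evidence about the pathways. In the edgeR fits without liver sgCtrl 5.1, sgCtrl 7.2, sgPrdx2 1.1 or sgPrdx2 1.3, 0 of all genes were called, so those fits say nothing particular about the 44 (17 to 19 of which had an unadjusted p under 0.05). Without sgCtrl 7.1 there were 3 calls and without sgPrdx2 3.2 there were 9. The log2 fold changes of the 6 called genes ranged from 0.76 to 0.94 for Hgfac, 0.63 to 0.81 for Mst1, -1.34 to -1.04 for Plau, -1.06 to -0.77 for Plat, -1.36 to -1.17 for Adam8 and -0.85 to -0.69 for Sh3kbp1 when each liver was left out in turn. With counts scaled to 6 reference genes 1 remained, Adam8.

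**Figure D3:**
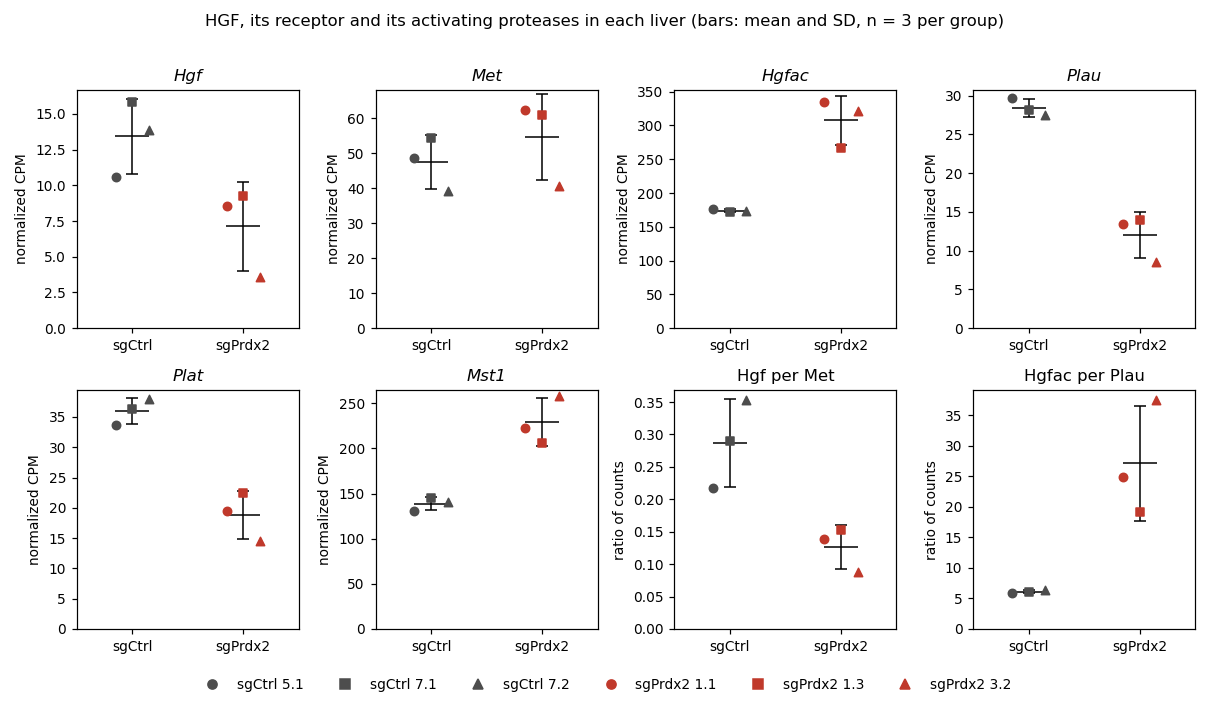
Normalized CPM of Hgf, Met, Hgfac, Plau, Plat and Mst1, and 2 ratios of counts, in the 6 livers, with the mean and SD of each group (n = 3). Hgfac and Mst1 are higher and Plau and Plat lower in every sgPrdx2 liver, and the ratio of Hgfac to Plau is 5.93 to 6.34 in sgCtrl livers and 19.1 to 37.5 in sgPrdx2 livers.

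The 9 genes around HGF activation moved in both directions. Hgfac, the hepatocyte-made plasma protease that cleaves pro-HGF, rose from 176, 172 and 174 CPM in sgCtrl livers to 335, 266 and 322 CPM in sgPrdx2 livers (log2 fold change 0.82, SE 0.14, adjusted p = 0.0394, edgeR). Plau, the urokinase, fell from 29.7, 28.1 and 27.5 CPM to 13.5, 13.9 and 8.57 CPM (log2 fold change -1.24, SE 0.19, adjusted p = 0.0358). Plat, the tissue plasminogen activator, fell from 33.7, 36.4 and 38 CPM to 19.5, 22.5 and 14.6 CPM (log2 fold change -0.93, SE 0.17, adjusted p = 0.0399). None of these groups overlapped. Within a liver, the ratio of Hgfac to Plau counts was 5.93, 6.11 and 6.34 in sgCtrl livers and 24.9, 19.1 and 37.5 in sgPrdx2 livers (p = 0.1, exact permutation test, the smallest possible), a mean log2 ratio higher by 2.09, with a range of 1.83 to 2.32 when each liver was left out in turn, a pair chosen after its values were seen.

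Of the remaining 6 genes of this list, none was called by edgeR, and 3 (Plg, Hpn and St14) had an unadjusted p under 0.05 and were called by DESeq2. Over all genes, 24.9% had such an unadjusted p and DESeq2 called 14.0%. Plg, plasminogen, was at 1030 to 1470 CPM in sgCtrl livers and 2170 to 2490 CPM in sgPrdx2 livers (log2 fold change 0.84, adjusted p = 0.0504). Hpn, the hepatocyte membrane protease hepsin, and St14, the epithelial membrane protease matriptase, had log2 fold changes of 0.54 (adjusted p = 0.0997) and -0.59 (adjusted p = 0.0835). The inhibitors Spint1 and Spint2 overlapped between groups. Hgfac, Plg and Hpn, made by hepatocytes, were higher in the livers where the hepatocyte marker sum was higher, and Plau and Plat, made mostly outside hepatocytes, were lower where the stellate, macrophage and endothelial sums were lower, and the part of cell makeup in these values was not tested.

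The window before the Hgfac start is shown because Hgfac was the called activator with the steadiest control values. It lies at chr5:35041259-35041508 on the plus strand (RefSeq, GRCm38.p6), ahead of a gene annotated at chr5:35041509-35048461, and held none of the 3 motifs.
Hgfac: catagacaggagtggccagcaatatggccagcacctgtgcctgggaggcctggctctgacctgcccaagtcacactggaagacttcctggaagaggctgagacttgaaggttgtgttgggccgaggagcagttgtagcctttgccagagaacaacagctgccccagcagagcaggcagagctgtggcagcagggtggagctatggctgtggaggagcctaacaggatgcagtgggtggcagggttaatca

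**Figure D4:**
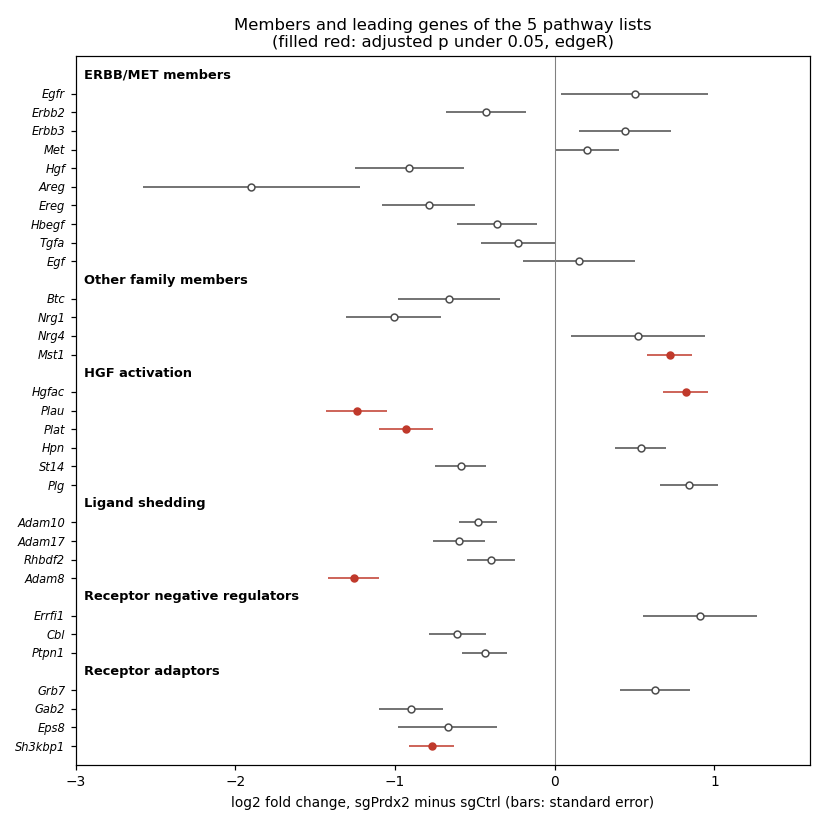
Log2 fold change (sgPrdx2 minus sgCtrl) with its standard error for the 10 receptors and ligands and for 21 genes of the 5 lists (those called and the next 3 by p in each list), from 3 livers per group. The 6 filled points passed the edgeR test, and all 10 receptors and ligands are open.

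Of 9 further family members, 6 were tested and 1 was called, beside 3.33% of all genes. Mst1, the macrophage-stimulating protein that hepatocytes secrete as the ligand of the MET relative MST1R, rose from 131, 145 and 141 CPM to 223, 206 and 258 CPM (log2 fold change 0.72, SE 0.14, adjusted p = 0.0455, edgeR). Its receptor Mst1r was at 0.534 to 2.51 CPM in all livers, and differed by -0.06 on the log2 scale (adjusted p = 0.95). Of Mst1 stretches, 4.29% occur in Rnf123 on the opposite strand. Nrg1, a ligand of ERBB3, stood at 8.8, 19.3 and 14 CPM in sgCtrl livers and at 6.74, 8.8 and 5.37 CPM in sgPrdx2 livers, with a log2 fold change of -1.01 (SE 0.30, adjusted p = 0.0997, edgeR) and an adjusted p of 0.0143 by DESeq2. Btc, another EGFR ligand, differed by -0.66 on the log2 scale (adjusted p = 0.242). Epgn, Nrg2 and Nrg3 had too few counts to be tested, with 5, 34 and 0 counts over the 6 livers.

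Of 7 genes for ligand shedding, 1 was called, beside 3.33% of all genes. Adam8, a metalloprotease of myeloid cells, fell from 82.4, 63.3 and 74.5 CPM to 26.8, 29.8 and 35.2 CPM (log2 fold change -1.26, SE 0.16, adjusted p = 0.0313, edgeR), the smallest adjusted p among the listed genes. Adam17 and Adam10, the chief sheddases of the EGFR ligands, differed by log2 values of -0.60 (adjusted p = 0.0813) and -0.48 (adjusted p = 0.0638, edgeR). Both were lower without overlap between groups, as were 17.5% of all genes. The summed macrophage markers were lower in the same livers, and their part in these values was not tested.

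Of 12 negative regulators of the receptors none was called by edgeR, beside 3.33% of all genes. An unadjusted p under 0.05 was found for 3, beside 24.9% of all genes, and DESeq2 called 3, beside 14.0%. Cbl, a ubiquitin ligase that targets EGFR and MET, differed by -0.61 on the log2 scale (adjusted p = 0.0903), and Ptpn1, a phosphatase of receptor kinases, by -0.44 (adjusted p = 0.107). Errfi1, a feedback inhibitor of EGFR, stood at 270, 226 and 259 CPM in sgCtrl livers and at 318, 799 and 307 CPM in sgPrdx2 livers. All 3 sgPrdx2 livers were above the sgCtrl livers, but most of the difference came from liver sgPrdx2 1.3: the log2 fold change was 0.91 (SE 0.36, adjusted p = 0.171, edgeR) with it and 0.33 without it. Errfi1 and Egfr were thus highest in different sgPrdx2 livers.

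Of 10 receptor adaptors, 1 was called, beside 3.33% of all genes. Sh3kbp1, an adaptor in the uptake of activated receptors, fell from 19.8, 16.4 and 19 CPM to 9.55, 11 and 11.9 CPM (log2 fold change -0.77, SE 0.14, adjusted p = 0.0409, edgeR), and it had an adjusted p of 0.0923 with the transcript length trend removed. Gab2, a docking protein of receptor kinases, differed by -0.90 on the log2 scale (adjusted p = 0.0541, edgeR). Grb7, which binds ERBB2 and ERBB3, differed by 0.63 (adjusted p = 0.131, edgeR). Both were without overlap between groups, where 17.5% of all genes were lower and 16.7% higher in this way.

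The genes whose levels were most like those of 3 of the receptors and ligands over the 6 livers, by Pearson's r of log2 CPM among 14122 other genes, were as follows. For Egfr they were Atp4a (r = 0.979), Sar1a (r = 0.979) and Iqcd (r = 0.977), and 90 genes in all were above 0.9. For Met they were Pde8a (r = 0.998), Mpdz (r = 0.993) and Rnf14 (r = 0.993), with 301 genes above 0.9. For Hgf they were Cftr (r = 0.999), Pdgfc (r = 0.997) and BC003331 (r = 0.997), with 1299 genes above 0.9. The 6 livers are few, and they share the group difference and the transcript length difference of liver sgPrdx2 3.2, so these values describe the livers only. Egfr had the fewest genes like it and Hgf the most.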

How the data were processed

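RNA-Seq counts of 6 mouse livers were analysed, 3 sgCtrl and 3 sgPrdx2, grouped by their labels. The authors deposited whole-number counts of reads per gene without normalization, and the submitters' processing notes name HISAT2, HTSeq, DESeq2 and GRCm38, with versions, annotation and strandedness not given in the sources used here. A second deposited table holds the authors' own DESeq2 comparison and was not used. In R 4.3.3, genes were kept by filterByExpr (minimum count 10) and normalized by TMM, and groups were compared by edgeR 4.0.16 (glmQLFit, glmQLFTest) over all 17032 genes without covariates, with Benjamini-Hochberg adjustment over all of them. Genes with an adjusted p under 0.05 were called. DESeq2 1.42.0 was an alternative. The biological coefficient of variation was 0.213. No pair of livers agreed within sampling noise (chi-square per degree of freedom at least 31.9). The labels call the livers biological replicates. Single values were compared by two-sided exact permutation tests. Lengths and positions came from GENCODE M21 (GRCm38). From each pathway list, the genes called and otherwise up to 3 with the smallest p were named, and the ratios, the spread between livers and the length correction were added after seeing the data. The members, lists and tests were chosen with earlier results of these data known. A result on a listed gene is not reported here, although it was tested and counted with the others. The fits were tested on simulated data.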

Additional observations from a re-analysis of the deposited data

How the results depend on the processing

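Over the 10 receptors and ligands and 14 alternatives each, 133 of 140 log2 fold changes kept their direction and their side of the threshold. In the fits that left out a liver and called 0 of all genes, the side of the threshold could not change. With total counts as the only scaling, which moved the median of all genes to -0.39, 2 of the 10 were called (Hgf, adjusted p = 0.049, and Ereg, adjusted p = 0.0445, both lower), and Met (-0.15) and Egf (-0.23) changed sign. Relative to that median both were higher. Leaving out each liver in turn gave -0.12 to 0.88 for Egfr and -0.04 to 0.58 for Egf. The cause of these shifts was not tested. Such fits gave 0 calls among the 10 each time. Without sgCtrl 5.1, sgCtrl 7.2, sgPrdx2 1.1 or sgPrdx2 1.3, 0 of all genes were called, so 0 among the 10 was fixed there. The count of all genes called was 567, and became 3247 (206 higher and 3041 lower) with total counts, 239 with 6 reference genes, 2066 with DESeq2, 1128 with no filter on low counts, 0 at an adjusted p under 0.01, and 0 to 619 when each liver was left out. The count among the listed pathway genes was 6, and became 17 with total counts, 1 with 6 reference genes, 17 with DESeq2, 0 at an adjusted p under 0.01, and 0 to 9 when each liver was left out, the 0 coming from fits in which 0 of all genes were called. With the transcript length trend removed, chosen after seeing the data, 771 of all genes, 7 listed genes and 0 of the 10 were called. No paired analysis was possible because the livers of the groups share no replicate numbers. Ereg, Egf and Areg had 17 to 507 counts per liver, which limits their precision, and 3 livers a group leave differences of the size of the intervals given above undetected.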
